A study of Mus musculus with 6 samples.

Results

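Acot3, which encodes a peroxisomal acyl-CoA thioesterase, and the fatty acid hydroxylase genes Cyp4a31, Cyp4a32 and Cyp4a12b were followed liver by liver in mice given gigantol or vehicle. The genes were taken by symbol from the deposited table, and these 4 of its 332 rows are described here. The livers came from 6 male mice of the Kunming stock, aged 6 to 8 weeks and weighing 20 to 28 g. In the gigantol group 3 mice received gigantol at 10 mg/kg by mouth, in the vehicle group 3 mice received an equal volume of the vehicle, and all were killed 4 h later. Each library is labelled as 1 liver. Gigantol is a plant bibenzyl that the series title describes as an agonist of the nuclear receptors PPARα and PPARγ. The sample titles go against these labels: the 3 gigantol libraries are titled PANC1-OE and the 3 vehicle libraries PANC1-Vector, each with its number, which names a human cell line and a different contrast that runs exactly along the groups. Organism, tissue and treatment are nevertheless labelled as mouse liver with gigantol or solvent, and the 332 gene IDs are all of mouse. Groups below follow the treatment label, and the table's columns, which carry the titles, were assigned through it, so every direction given rests on that label. What OE and Vector stand for here is not stated in the labels, and any contrast they name cannot be told apart from gigantol against vehicle. The table lists genes that the authors selected for a difference between these same 6 libraries, so the differences between the groups are given below as a description, with no test. The levels are in CPM, the usual unit of read counts brought to one common library size.

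Fatty acids enter metabolism as acyl-CoA esters, and acyl-CoA thioesterases cut these esters back to free fatty acid and coenzyme A. Cyp4a enzymes are cytochromes P450 of the endoplasmic reticulum that place a hydroxyl group at the far (omega) end of fatty acids, including arachidonic acid, a route towards dicarboxylic acids that are shortened in peroxisomes. In mouse liver PPARα is the textbook regulator of both families, with Cyp4a10, Cyp4a14 and several Acot genes among its classical targets, and several of these genes also differ between the sexes, Cyp4a12b being typical of males and Acot3 of females.

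The 3 Cyp4a genes are close relatives that lie together on chromosome 4, which bears on how reads could be told apart. In the coordinates of the deposited table, whose mouse build no source used here names, Cyp4a12b (ENSMUSG00000078597) spans 115268821 to 115296231, Cyp4a31 (ENSMUSG00000028712) spans 115420846 to 115436212 and Cyp4a32 (ENSMUSG00000063929) spans 115458166 to 115478799, all on the plus strand. A gap of 22.0 kb separates Cyp4a31 from Cyp4a32, and 124.6 kb separate Cyp4a12b from Cyp4a31. Acot3 (ENSMUSG00000021228) lies on the plus strand of chromosome 12 from 84098918 to 84107176. Within 1 Mb of a member the table held no gene other than the members themselves. In the GENCODE M21 annotation of GRCm38, Cyp4a14 and Cyp4a10 stand between Cyp4a12b and Cyp4a31 and Cyp4a12a stands before Cyp4a12b. These relatives were not analysed here.

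The stretch of coding sequence in which Cyp4a31 and Cyp4a32 differ most shows how few bases separate them from each other and from Cyp4a10. Positions 214 to 261 of each coding sequence are given 5′ to 3′ from the GENCODE M21 reference transcripts (plus strand of GRCm38), with capitals at the bases that differ between Cyp4a31 and Cyp4a32 and, for Cyp4a10, at the bases that differ from Cyp4a31. The reference is not a Kunming mouse.
Cyp4a31: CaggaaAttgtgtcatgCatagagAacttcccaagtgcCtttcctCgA
Cyp4a32: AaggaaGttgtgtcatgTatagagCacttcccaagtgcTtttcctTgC
Cyp4a10: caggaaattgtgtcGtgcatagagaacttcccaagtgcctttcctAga
Cyp4a31 and Cyp4a32 differed at 7 of these 48 bases, and Cyp4a10 differed from Cyp4a31 at 2. Over the whole coding sequence of 1527 bases, Cyp4a31 and Cyp4a32 differed at 61 bases, Cyp4a31 and Cyp4a10 at 52, and Cyp4a32 and Cyp4a10 at 43.

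Cyp4a12b has an even closer relative in Cyp4a12a, from which it differed at 23 of 1524 coding bases (98.5% identity). The most different stretch of the pair, positions 636 to 683, is shown with capitals at the 4 differing bases.
Cyp4a12b: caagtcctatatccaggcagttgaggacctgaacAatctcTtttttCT
Cyp4a12a: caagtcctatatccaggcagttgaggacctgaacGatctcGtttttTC
Of all 100-base stretches of the Cyp4a12b transcript, 36.2% also occur word for word in Cyp4a12a. The share of 100-base stretches found in any other annotated gene was 20.1% for Cyp4a32, 8.22% for Cyp4a31 and 14.3% for Acot3, the last mostly with the annotated gene Gm49366. For stretches of 250 bases, the lower end of the fragment sizes selected, these shares were 9.88% for Cyp4a12b, 5.66% for Acot3 and 0 for Cyp4a31 and Cyp4a32. The sources used here do not say how the authors' counting treated reads that fit several genes. The levels of Acot3 and of the 3 Cyp4a genes carry that uncertainty.

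**Figure D1:**
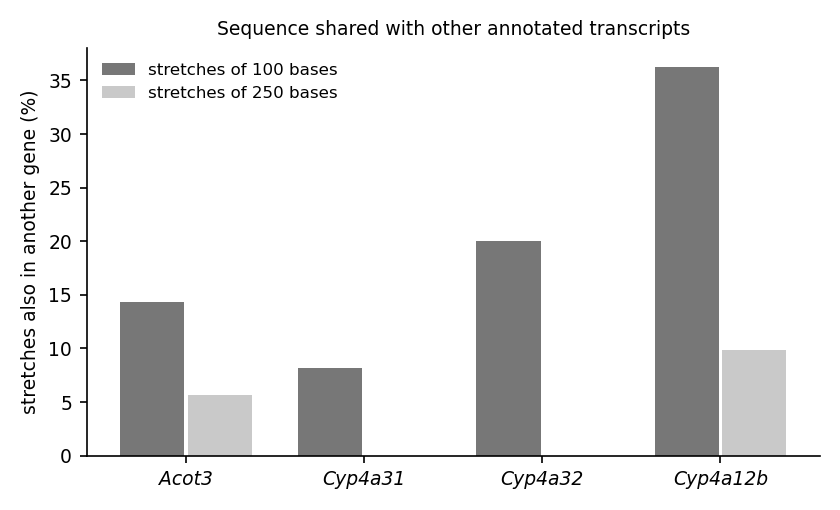
Percent of all stretches of 100 bases (dark bars) or 250 bases (light bars) of each gene's longest-coding reference transcript that also occur in a transcript of another gene. Cyp4a12b has the highest bar at both lengths, 36.2% and 9.88%, and Cyp4a31 and Cyp4a32 share no stretch of 250 bases.

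RefSeq promoter windows (250 bases before to 50 after the start, GRCm38.p6) were at hand for 2 of the 4 genes, Acot3 and Cyp4a32. PPARα binds a direct repeat of AGGTCA with 1 base between the copies, written AGGTCANAGGTCA, and neither window held it on either strand, as was true of all but 0.0396% of 32851 windows. The single hexamer AGGTCA, searched on both strands, occurs in 16.3% of windows and was found once in Acot3, on the minus strand just after the annotated start, and not in Cyp4a32. It is printed for Acot3 with the match in capitals, on the plus strand of chr12:84052152-84052177 in GRCm38.p6.
Acot3: tattagctctTGACCTtgtctgtctg
A match of letters describes the sequence and is not evidence of binding.

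The step between low CPM values put the libraries at an estimated 2.12e+07 to 2.67e+07 reads and the members at an estimated 158 reads (Cyp4a31 in vehicle replicate 2) to 24759 reads (Cyp4a32 in vehicle replicate 1). These are estimates, since whole reads could not be taken as recovered for the 3 vehicle libraries. If they hold, counting error was at most 7.96% of a member's level, while the coefficients of variation between livers ran from 11.6% to 98.0%. Among the table's genes vehicle replicate 1 and gigantol replicate 2 stood apart from the other livers of their groups. The mean chi-square per gene against counting noise was 206 and 244 for vehicle replicate 1 against the other vehicle livers and 30.5 between those, and 144 and 158 for gigantol replicate 2 against 55.5 between the other gigantol livers. None of 13 hepatocyte markers was among the table's genes, so the tissue label could not be checked with them. Of other cell types' markers the table held 5 of 6 for red blood cells, 2 of 10 for stellate cells, 1 of 11 for Kupffer cells and macrophages and 1 of 8 for other leukocytes. It held none for endothelium, cholangiocytes or adipocytes. All 9 markers held had lower means in the gigantol livers. Among all 332 rows 213 were lower and 119 higher, so nothing is read from this count. The summed level of the red cell markers was 349 to 633 CPM in gigantol and 554 to 1912 CPM in vehicle livers, that of the stellate markers Lrat and Des 6.81 to 11.9 against 13.1 to 24.5 CPM, and Marco, of Kupffer cells, stood at 1.55 to 3.71 against 8.21 to 8.89 CPM. Cd79a, of B cells, stood at 0.141 to 0.282 against 0.347 to 0.749 CPM. Their part in the results below was not tested.

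In the authors' deposited table Acot3 and Cyp4a12b, 2 of the 4 genes, had an FDR under 0.05, both lower with gigantol. The background is 25.9% of the 332 rows in either direction, 15.7% lower and 10.2% higher. The 3 gigantol livers lay entirely on one side of the 3 vehicle livers for 3 of the 4 genes, Acot3 and Cyp4a12b below and Cyp4a31 above, against 72% of the rows in either direction, 48.5% below and 23.5% above. Since the rows were selected on these libraries, nothing is read from these counts. All 4 genes passed the filter of at least 1 CPM in at least 3 libraries, as did 201 rows of the table. Their median difference in log2(CPM + 1) was −1.27, with 1 gene higher and 3 lower, beside a median of −0.72 for the 201 genes, with 78 higher and 123 lower.

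Acot3 was at 12.2, 8.82 and 13.9 CPM in gigantol replicates 1, 2 and 3 and at 35.7, 45.05 and 39.985 CPM in vehicle replicates 1, 2 and 3. Every gigantol liver was low and every vehicle liver high, and the highest gigantol value was well short of the lowest vehicle value. The means were 11.7 ± 2.60 and 40.2 ± 4.69 CPM (SD, n = 3 each), 3.45 times higher in vehicle livers. On the log2(CPM + 1) scale the difference was −1.72 ± 0.44 (limma SE), and the authors' deposited table gave a log2 fold change of −1.78 with FDR 1.84e-11. A limma SE borrows spread from the other fitted genes, so here and below it is not the gene's own error. The residual SD of Acot3 itself was 0.248. Of the 4 genes it had the smallest spread among the vehicle livers, with a coefficient of variation of 11.6% beside a median of 30.4% over the 201 genes. In bulk liver, fewer cells of a type and less RNA per cell cannot be told apart.

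Cyp4a12b, the hydroxylase typical of male liver, was likewise lower with gigantol but varied more. It was at 68.7, 20.9 and 108 CPM in gigantol replicates 1, 2 and 3 and at 155, 247 and 272 CPM in vehicle replicates 1, 2 and 3. The groups did not overlap, although the highest gigantol liver, replicate 3, approached vehicle replicate 1. The means were 65.9 ± 43.6 and 225 ± 61.7 CPM (SD, n = 3 each), 3.41 times higher in vehicle livers. The log2(CPM + 1) difference was −1.996 ± 0.63 (limma SE), and the authors' deposited table gave a log2 fold change of −1.77 with FDR 0.0395. Without gigantol replicate 2, the liver lowest in Cyp4a12b, it was −1.33 ± 0.48.

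Cyp4a31 was the only one of the 4 with a higher mean in the gigantol livers. It was at 58.0, 45.4 and 57.2 CPM in gigantol replicates 1, 2 and 3 and at 33.4, 6.18 and 7.46 CPM in vehicle replicates 1, 2 and 3. Vehicle replicate 1 lay between the other vehicle livers and the gigantol livers, which were close to each other, with coefficients of variation of 13.1% in gigantol and 98.0% in vehicle livers. The means were 53.5 ± 7.03 and 15.7 ± 15.4 CPM (SD, n = 3 each), 3.41 times higher in gigantol livers and 7.85 times higher without vehicle replicate 1. The log2(CPM + 1) difference was 2.08 ± 0.60 (limma SE) with all livers and 2.80 ± 0.35 without that one. The authors' deposited table gave a log2 fold change of 1.78 with FDR 0.101, which is over 0.05.

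Cyp4a32, the neighbour of Cyp4a31, had the widest gap in CPM between single livers, though not the largest relative spread. Its coefficient of variation among vehicle livers was 88.6%, beside 98.0% for Cyp4a31. It was at 189, 241 and 186 CPM in gigantol replicates 1, 2 and 3 and at 927, 235 and 213 CPM in vehicle replicates 1, 2 and 3. One vehicle liver, replicate 1, was high and the other 5 livers lay together, so the groups overlapped. The means were 206 ± 31.1 and 458 ± 406 CPM (SD, n = 3 each), but the vehicle mean without replicate 1 was 224 CPM, 1.09 times that of the gigantol livers. The log2(CPM + 1) difference was −0.81 ± 0.62 (limma SE) with all livers and −0.13 ± 0.37 without vehicle replicate 1. The authors' deposited table gave a log2 fold change of −1.15 with FDR 0.477.

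**Figure D2:**
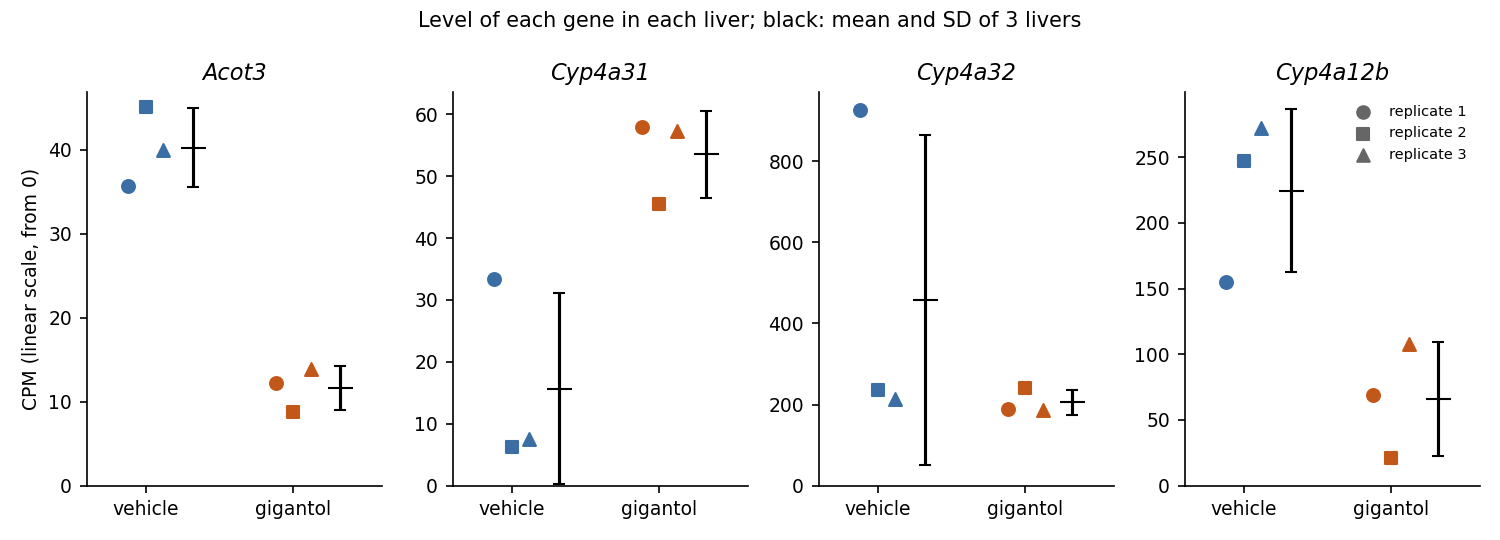
CPM on linear axes from 0 in each liver, vehicle in blue and gigantol in orange, with the symbol giving the replicate number of the label and black bars the mean and SD of 3 livers. Acot3 and Cyp4a12b are lower in all 3 gigantol livers, Cyp4a31 is higher in all 3, and Cyp4a32 has vehicle replicate 1 at 927 CPM and the other 5 livers between 186 and 241 CPM.

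Levels can be set beside each other between genes only per length of transcript. The order depends on which length is used, because the reference transcript of Cyp4a32 holds hardly any sequence outside the coding part (3 bases) while those of Cyp4a31 and Cyp4a12b hold 982 and 871 such bases. In CPM per kb of transcript, Cyp4a32 was the highest of the 4 in all 6 livers, at 121 to 158 in gigantol and 139 to 606 in vehicle livers. Per kb of coding length, an alternative chosen after seeing the data, it was the highest in 4 livers. Cyp4a12b stood above it in vehicle replicate 2, at 162 against 154 CPM per coding kb, and in vehicle replicate 3, at 178 against 139. Per kb of transcript, the order in vehicle livers went on with Cyp4a12b at 64.6 to 114, Acot3 at 10.4 to 13.1 and Cyp4a31 at 2.46 to 13.3 CPM per kb, and the ranges of the last 2 overlapped. Per kb of coding length those 2 did not overlap, with Acot3 at 27.5 to 34.8 and Cyp4a31 at 4.05 to 21.9. In gigantol livers, again per kb of transcript, Cyp4a12b at 8.72 to 45.1 and Cyp4a31 at 18.1 to 23.1 CPM per kb overlapped, and Acot3 was lowest at 2.57 to 4.06 CPM per kb.

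The summed CPM of the 3 Cyp4a genes was 316, 308 and 351 in gigantol replicates 1, 2 and 3 and 1115, 488 and 492 in vehicle replicates 1, 2 and 3. The sum was lower in every gigantol liver, at 325 ± 23.03 against 699 ± 361 CPM (SD, n = 3 each). The log2(CPM + 1) difference of the sum was −0.99 ± 0.40 (SE) and, without vehicle replicate 1, −0.59 ± 0.07. These SEs come from the pooled SD of the groups without limma, so they are not comparable with the limma SEs of the single genes. Without that liver the sum was lower by way of Cyp4a12b, since Cyp4a31 and Cyp4a32 together stood at 247, 287 and 243 CPM in gigantol replicates 1, 2 and 3 and at 241 and 220 CPM in vehicle replicates 2 and 3.

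Within the sum, the share of Cyp4a31 separated the groups. This follows from the levels, since Cyp4a31 was higher and the sum lower in every gigantol liver. Cyp4a31 made up 18.3%, 14.8% and 16.3% of the summed Cyp4a CPM in gigantol replicates 1, 2 and 3 and 3.00%, 1.27% and 1.52% in vehicle replicates 1, 2 and 3. Every gigantol share was at least 4.93 times every vehicle share, with means of 16.5 ± 1.79% and 1.93 ± 0.936% (SD, n = 3 each). Cyp4a12b made up 21.7%, 6.79% and 30.8% in the gigantol livers and 13.9%, 50.6% and 55.3% in the vehicle livers, so its shares overlapped although its levels did not. Cyp4a32 made up 59.9%, 78.4% and 52.9% against 83.1%, 48.1% and 43.2%, and these overlapped too. Both overlaps rest on vehicle replicate 1: without it the Cyp4a12b share was lower and the Cyp4a32 share higher in every gigantol liver. The gigantol minus vehicle difference of the mean Cyp4a12b share was −20.2 percentage points with all livers, −33.2 without vehicle replicate 1 and −11.9 from the pooled CPM of each group. That of the mean Cyp4a32 share was 5.61 points with all livers and 18.1 without vehicle replicate 1, but −1.73 without gigantol replicate 2 and −1.86 without vehicle replicate 3. These shares cover the 3 listed genes only, and the other Cyp4a genes were not analysed here.

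**Figure D3:**
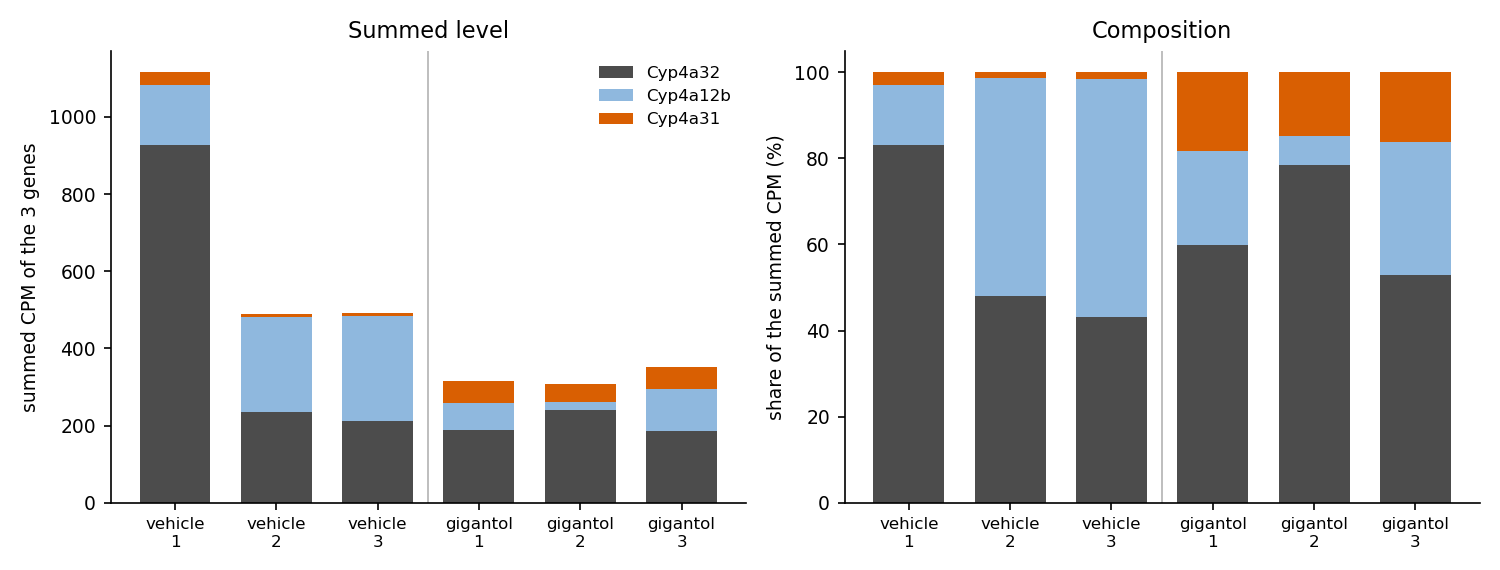
Stacked bars for each liver of the CPM of Cyp4a32 (dark grey), Cyp4a12b (blue) and Cyp4a31 (orange), as levels on the left and as percent of their sum on the right. The orange part takes 14.8% to 18.3% in gigantol and 1.27% to 3.00% in vehicle livers.

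The ratio between the neighbours Cyp4a31 and Cyp4a32 separated the groups although the levels of both varied widely among vehicle livers. For every 100 CPM of Cyp4a32 there were 30.6, 18.8 and 30.8 CPM of Cyp4a31 in gigantol replicates 1, 2 and 3 and 3.61, 2.63 and 3.51 CPM in vehicle replicates 1, 2 and 3. Vehicle replicate 1, the vehicle liver highest in both genes, had nearly the ratio of vehicle replicate 3. The means were 26.7 ± 6.86 and 3.25 ± 0.538 (SD, n = 3 each), 8.23 times higher in the gigantol livers and 7.52 to 9.45 times with 1 liver left out. Per kb of transcript the ratio was 11.5 to 18.8 in gigantol and 1.604 to 2.20 in vehicle livers. Cyp4a32 shares 9.71% of its 100-base stretches with Cyp4a31 and 13.8% with Cyp4a10, and the part of read assignment in this ratio was not tested.

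**Figure D4:**
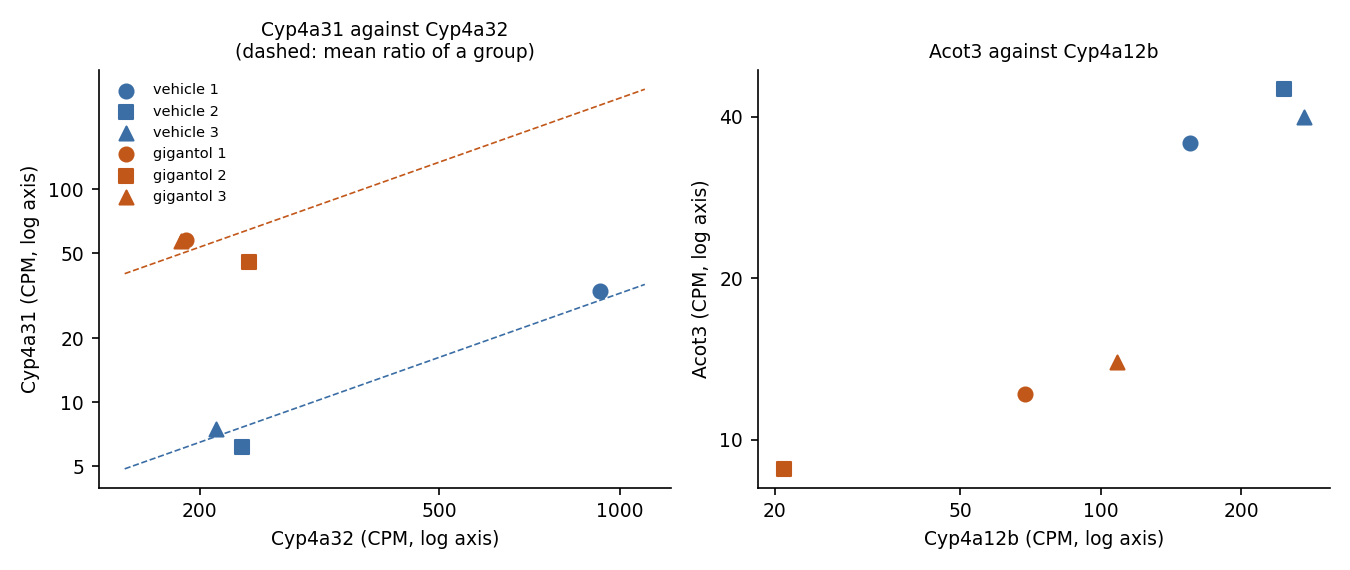
Each point is 1 liver on log axes of CPM, vehicle in blue and gigantol in orange. On the left, Cyp4a31 against Cyp4a32 with dashed lines at the mean ratio of each group (26.7 and 3.25 CPM of Cyp4a31 for every 100 CPM of Cyp4a32); on the right, Acot3 against Cyp4a12b, where gigantol livers lie at lower values of both genes.

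The ratio of Acot3 to Cyp4a12b, the genes lower in every gigantol liver, did not separate the groups. For every 100 CPM of Cyp4a12b there were 17.7, 42.2 and 12.9 CPM of Acot3 in gigantol replicates 1, 2 and 3 and 23.1, 18.2 and 14.7 CPM in vehicle replicates 1, 2 and 3. Those ranges overlapped, and gigantol replicate 2, the lowest liver for both genes, had the highest ratio.

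Likeness of pattern was measured after taking the mean of each group away, so that the treatment difference did not enter, by Pearson's r of the log2(CPM + 1) deviations over the 6 livers among the genes past the filter. It is a description over few points that share library scaling. Acot3 was most like Trim5 (r = 0.96, Spearman's rho = 0.94), Cyp4a12b (r = 0.95, rho = 0.83) and Phf11c (r = 0.95, rho = 0.77). These likenesses lean in part on gigantol replicate 2, without which r was 0.92 for Trim5, 0.83 for Cyp4a12b and 0.80 for Phf11c. Cyp4a12b was most like Dusp1 (r = 0.996, rho = 0.94), Phf11c (r = 0.99, rho = 0.94) and Iah1 (r = 0.98, rho = 1), and Acot3 came sixth. Dusp1, a phosphatase induced by stress, was at 20.7, 9.20 and 32.0 CPM in gigantol replicates 1, 2 and 3 and at 32.9, 45.4 and 51.1 CPM in vehicle replicates 1, 2 and 3, thus lowest in the liver lowest in Cyp4a12b.

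Cyp4a31 was most like Arsg (r = 0.998, rho = 0.94), Smpd3 (r = 0.98, rho = 0.89) and Raet1e (r = 0.96, rho = 0.94). Cyp4a32 was most like Clec4n (r = 0.997, rho = 0.94), Scara5 (r = 0.996, rho = 0.94) and C8b (r = 0.99, rho = 0.94). These likenesses lean on vehicle replicate 1, without which r was 0.51 for Smpd3 and 0.45 for Raet1e but 0.96 for Arsg and between 0.92 and 0.96 for the partners of Cyp4a32. For Cyp4a31 and Cyp4a32 themselves r was 0.93 with all livers and −0.97 without vehicle replicate 1.

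Of 149 genes in 9 lists on fatty acid hydroxylation, thioesterases, oxidation and PPAR, 8 were in the table, the 4 members and 4 others. Of the 13192 genes behind the authors' FDR, 2.52% were listed in the table, 0.902% higher and 1.61% lower with gigantol. How many of the lists' genes were among the 13192 is not known from the table, so nothing is read from the lists' counts. The table held 3 of 20 Cyp4 family genes, 1 of 19 thioesterase and acyltransferase genes and 4 of 24 other PPARα responders. It held none of the 86 genes of the other 6 lists, which cover the PPAR receptors and their partners, peroxisomal and mitochondrial oxidation, alcohol and aldehyde oxidation, P450 electron donors and arachidonic acid epoxygenases. Those genes were not analysed here.

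The 4 other PPARα responders went both ways, 2 higher and 2 lower with gigantol, beside 119 higher and 213 lower of all 332 rows. The authors' deposited table gave log2 fold changes of 1.41 for G0s2, 1.18 for Plin4, −1.08 for Txnip and −1.14 for Cd36. G0s2, an inhibitor of the lipase that opens lipid droplets, was at 18.5, 40.9 and 23.5 CPM in gigantol replicates 1, 2 and 3 and at 6.03, 12.005 and 13.3 CPM in vehicle replicates 1, 2 and 3. Plin4, a lipid droplet coat protein, was at 15.9, 9.67 and 14.1 CPM against 8.46, 4.30 and 4.86 CPM in the same order. Both were higher in every gigantol liver, with the authors' deposited table listing their FDRs as 0.0368 and 0.0473.

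Txnip, a regulator of glucose uptake, and Cd36, a fatty acid transporter, had lower means. Txnip was at 60.8, 79.6 and 79.4 CPM in gigantol replicates 1, 2 and 3 and at 222, 124 and 119 CPM in vehicle replicates 1, 2 and 3, and the authors' deposited table lists its FDR as 0.0261. Cd36 was at 11.3, 18.1 and 12.9 CPM against 47.8, 25.7 and 19.7 CPM in the same order, and the FDR listed in the authors' deposited table was 0.112. Neither overlapped between the groups, and vehicle replicate 1, the liver highest in Cyp4a32, was the highest for both.

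**Figure D5:**
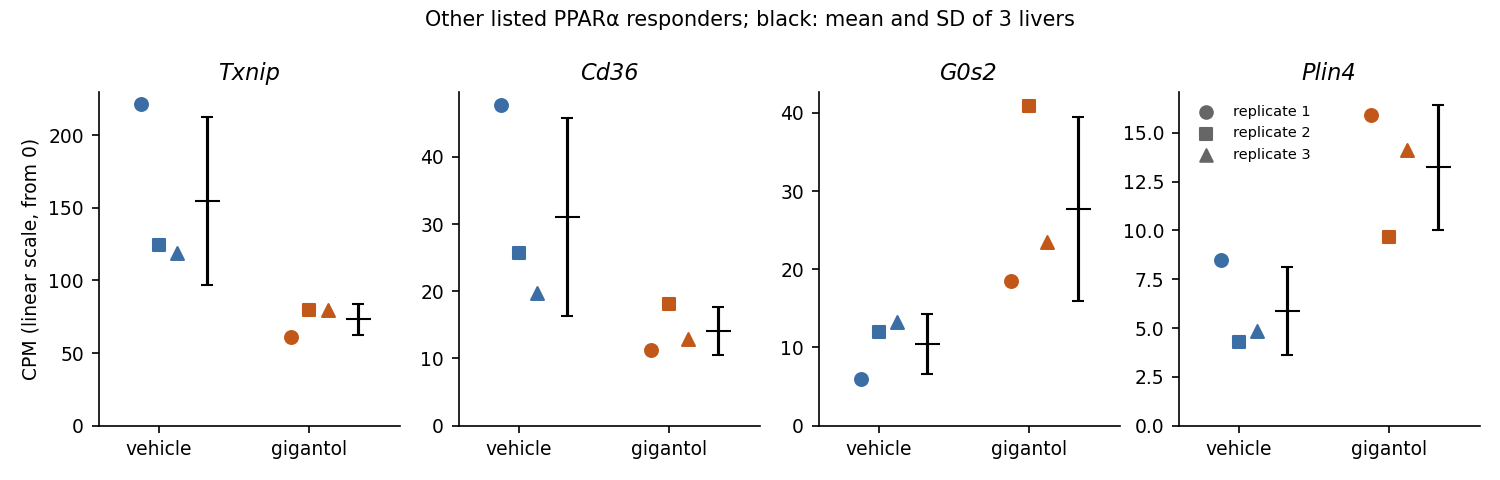
CPM on linear axes from 0 of the 4 other listed PPARα responders in each liver, vehicle in blue and gigantol in orange, with black bars for the mean and SD of 3 livers. Txnip and Cd36 are highest in vehicle replicate 1 (222 and 47.8 CPM), and G0s2 is highest in gigantol replicate 2 (40.9 CPM).

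Cyp4a12b and Acot3 were also set beside the genes that share their sex bias. Of 18 male-biased liver genes 10 were in the table, and Cyp4a12b was the 1 with a lower mean in the gigantol livers, beside 9 with a higher one. Of all rows in the table, 119 were higher and 213 lower, and the table lists 2.52% of the 13192 genes behind the authors' FDR. How many genes of either sex-biased list were among the 13192 is not known, so nothing is read from these lists' counts. Of 20 female-biased genes 5 were in the table, with Acot3 and Cyp17a1, a steroid hydroxylase, lower and Cyp2b10, Ntrk2 and A1bg higher. Cyp17a1 was at 6.07, 13.5 and 2.64 CPM in gigantol replicates 1, 2 and 3, where Acot3 was lowest in the liver highest in Cyp17a1, and at 40.6, 26.9 and 27.4 CPM in vehicle replicates 1, 2 and 3.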

How the data were processed

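Livers of 3 gigantol and 3 vehicle mice were analysed, grouped by the treatment label. Libraries were stranded and came from RNA without ribosomal RNA, per the labels' protocols. The tools named are HISAT2, fastp and DESeq2 1.16.1, per the submitters' processing notes, which name the human build GRCh38 although the 332 gene IDs are mouse IDs. The sources used here give neither the counter nor the annotation. Of 330 IDs found in GENCODE M21 (GRCm38), 324 had the same span length and 8 the same coordinates.

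The authors deposited CPM, a unit read from the values, which fell on whole multiples of 1 step per library (within 0.1 reads, up to 200 reads). The authors also deposited log2 fold changes and p-values with an FDR, per the file headers. In these rows p reached 0.0499, and log2 fold changes were never closer to 0 than 1.00.

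Differences and standard errors of single genes came from limma 3.58.1 (R 4.3.3) on log2(CPM + 1). The fit took 201 genes that reached 1 CPM in 3 or more libraries. Its standard errors borrow spread across these genes, which were selected on the group contrast. The log2(CPM + 1) scale understates changes of low genes. The standard error of the Cyp4a sum came from the plain pooled SD of the groups, outside limma. The fit was also run on simulated counts with known changes. Those counts did not copy the spread or the selection of these rows, so that run says nothing of error rates here. Nothing says more of the replicates than that each is 1 mouse. Shares, ratios and leave-one-out values were computed per liver. Alternatives were another pseudocount, equal medians, no filter, a replicate block and each liver left out. Named genes were the members, all table genes of 19 lists or within 1 Mb of a member, and the 3 genes most like each member. The members and lists were chosen with earlier results of these data known.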

Additional observations from a re-analysis of the deposited data

How the results depend on the processing

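The log2(CPM + 1) differences of the 4 genes and of the Cyp4a sum kept their direction under a pseudocount of 0.1 CPM, equal medians and each liver left out. The replicate block could not move these differences, since each group holds the same 3 replicate numbers, and it was not applied to the sum. Leaving out 1 liver gave ranges of −1.85 to −1.55 for Acot3, 1.67 to 2.80 for Cyp4a31, −1.19 to −0.13 for Cyp4a32, −2.49 to −1.33 for Cyp4a12b and −1.19 to −0.59 for the sum. Shifting the libraries to equal medians, which moved the gigantol livers by 0.25 against the vehicle livers, gave −1.47 for Acot3, a move beyond its spread of 0.248. The medians were those of the 201 genes, selected on the group contrast with 78 higher and 123 lower. A shift in library scaling cannot be told apart from that imbalance, so nothing is read from this move. The Cyp4a31 share was higher by 14.5 percentage points, by 10.3 points per kb of transcript and by 13.6 to 15.4 points with 1 liver left out. The Cyp4a32 share, 5.61 points higher, was −2.35 points from the pooled CPM of each group and −1.86 to 18.1 points with 1 liver left out. The Cyp4a12b share stayed lower, at −33.2 to −12.5 points with 1 liver left out and −11.9 points from pooled CPM. The Cyp4a31 to Cyp4a32 ratio, chosen after seeing the data, was 7.61 times higher in gigantol from pooled CPM. In a count also chosen after seeing the data, the groups did not overlap for 3 members with 1 liver left out, against 74.1% to 90.4% of the table's rows, and for all 4 without gigantol replicate 2, against 85.2%.

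Over the table, limma passed 111 of 201 genes adjusted over the table alone, which is circular for selected rows. It passed 169 of 332 without the filter, a share of 50.9% beside 55.2%. With 1 liver left out it passed 25 to 119 of 180 to 186 genes. The count was lowest without vehicle replicate 2 (25 of 181), and 26 of 181, 43 of 185 and 46 of 182 without vehicle replicate 3 and gigantol replicates 1 and 3. With the replicate block it passed 128 of 201. Whether the numbers pair the livers is not known. Deviations of same-numbered livers correlated at 0.13, 0.15 and −0.10 across genes, and not every liver correlated best with its own number. With 3 livers per group and rows selected on the group contrast, these values cannot settle it. The planned count test with edgeR was not run, because whole reads could not be taken as recovered in the 3 vehicle libraries. Reads per gene are therefore estimates, and so is the counting error drawn from them.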
